A study of Homo sapiens with 6 samples.

Results

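Retained-intron transcripts are RNAs of a gene in which sequence that is an intron of another transcript of the same gene was kept in the mature molecule. They were examined here in A549, a human lung adenocarcinoma cell line, 48 h after transfection with siRNA. The 6 libraries were 2 from cells given a negative control siRNA (A549_NC), 2 from cells given a first siRNA against the long noncoding RNA PLANE (siRNA1, labelled A549_siPLANE_1 and A549_siPLANE_2) and 2 from cells given a second one (siRNA2, labelled A549_siPLANE_3 and A549_siPLANE_4). All 6 libraries share the cell line and the time after transfection. Whether the groups were otherwise handled alike, and at the same time, was not established here. Nothing in the labels says that the 2 libraries of a group came from separate cultures. The p-values thus measure the spread between these libraries, which may be technical. Members were the transcripts of both deposited tables that the GENCODE annotation of GRCh37 types as retained_intron and whose mean over the 6 libraries was 0.5 FPKM or more (FPKM, sequenced fragments scaled by transcript length and library size). There were 11116 of them, out of 26359 retained-intron transcripts and 180253 transcripts in all, of which 58827 reached the same minimum. The targeted RNA itself was not analysed here.

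Pre-mRNA is spliced by the spliceosome, whose U1 particle reads the 5′ splice site and whose U2 particle, with the U2AF proteins, reads the 3′ end of the intron. SR proteins and hnRNP proteins bind exons and introns and raise or lower the use of nearby splice sites. An mRNA that keeps an intron is often held in the nucleus or, once in the cytoplasm, removed by nonsense-mediated decay, and genes for splicing factors are known for regulating their own output in this way. The annotation also gives the type retained_intron to short transcript models that end inside an intron, and the depth of reads in such a model can come from unspliced pre-mRNA.

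The expected counts summed to between 10572151 and 20778431 per library, and 484235 to 709968 of them fell on members, so that siRNA2 was the most deeply sequenced group. Markers of A549 were expressed, with 14 of 15 epithelial genes at 0.5 FPKM or more, while the medians of the leukocyte, fibroblast and endothelial lists were at most 0.775 FPKM. Of the histone genes whose mRNAs end without poly(A), 47 were found in the data and 39 were expressed. The median over the 47 was 101 and 114 FPKM in A549_NC, 61.9 and 77.6 in siRNA1, and 0.53 and 0.69 in siRNA2. The study's methods name poly(A) isolation or removal of ribosomal RNA without tying either to a library, so in every comparison with siRNA2 the treatment and the way the libraries were made cannot be told apart.

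Of the members, 3185 held at least 1 whole intron of an expressed protein-coding transcript of the same gene, 7406 reached into part of such an intron, 156 did neither, and 369 belonged to genes with no expressed protein-coding transcript that has an intron. The whole introns were 4474 in 2051 genes. Their median length was 301 bases, against 1601 bases for the 71629 other introns of the genes with members, and 25.7% of them were under 150 bases, against 8.94%. Their median GC content was 54.0%, against 43.4%. The splice sites themselves were less different: 98.1% of the retained introns began with GT and 99.5% ended with AG (98.9% and 99.9% of the others), and 22.9% opened with GTAAGT or GTGAGT (26.6% of the others). Nearly all, 93.4%, lay within the coding region, as did 90.02% of the others. The other introns are those that no retained-intron transcript, whatever its level, held whole. They thus include introns that members reached only in part. Counting only introns held whole favours short ones, so the difference in length may be partly built in. These are properties of the annotated models and carry no test.

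The splice sites of some of these introns show what the members hold. All are given 5′ to 3′ on the strand of the gene, from GRCh37, with exon bases in lower case and intron bases in capitals. The first set is of introns kept in members that stood high in A549_NC or that rose or fell in siRNA2: intron 3 of FTH1 (chr11:61732364-61732458, minus strand, 95 bases, 45.3% GC), intron 5 of RPL13A (chr19:49994122-49994296, plus strand, 175 bases, 56.6% GC), intron 7 of KRT8 (chr12:53292304-53292462, minus strand, 159 bases, 62.9% GC) and intron 4 of EEF1A1 (chr6:74228572-74228654, minus strand, 83 bases, 41.0% GC). Each lies between coding exons.
FTH1 intron 3, 5′ site: ccccatGTGAGTATTGGAAC
FTH1 intron 3, 3′ site: TCTTCCCCATTGTTTTGCAGttgtgt
RPL13A intron 5, 5′ site: gacaagGTGAGCTATGCCAA
RPL13A intron 5, 3′ site: CCCCTCTCTTTCTCTAACAGaaaaag
KRT8 intron 7, 5′ site: gagccgGTGGGTGTGGGTAC
KRT8 intron 7, 3′ site: CCCCATTTGTCTGGGTACAGgctgga
EEF1A1 intron 4, 5′ site: gctaacGTAAGTGGCTTTCA
EEF1A1 intron 4, 3′ site: TTGGCATGCTTGTGTTTCAGatgcct

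The second set is from genes that act in splicing: intron 4 of CLK1 (chr2:201724470-201724847, minus strand, 378 bases, 26.2% GC) and of its relative CLK4 (chr5:178043950-178044344, minus strand, 395 bases, 30.4% GC), intron 10 of PTBP1 (chr19:807903-808359, plus strand, 457 bases, 55.8% GC) and intron 11 of DDX17 (chr22:38884121-38888060, minus strand, 3940 bases, 40.5% GC). The letters printed for the 5′ sites of CLK1 and CLK4 are the same, and their 3′ sites differ.
CLK1 intron 4, 5′ site: caagatGTATAGAATATTTT
CLK4 intron 4, 5′ site: caagatGTATAGAATATTTT
CLK1 intron 4, 3′ site: GATTTATTTCTCTCTTTTAGatgaaa
CLK4 intron 4, 3′ site: TTTTTCCCTCCTCACTCTAGatgaaa
PTBP1 intron 10, 5′ site: ttttcgGTATGTTATCGTTC
PTBP1 intron 10, 3′ site: CCATCCCTGGGCTTTTGAAGgcgtct
DDX17 intron 11, 5′ site: ggctagGTTTGTATAGATAG
DDX17 intron 11, 3′ site: ACTCATCATTGACGTGGAAGatgtgg

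Members held a modest and steady part of the control libraries. Their share of the summed FPKM was 7.48% and 7.72% in A549_NC, 7.74% and 7.80% in siRNA1, and 4.25% and 4.39% in siRNA2. The siRNA1 libraries lay just above both controls, by 0.171 percentage points on average, and the siRNA2 libraries lay below all others, with a mean difference from A549_NC of -3.28 points. The difference for siRNA1 was 0.0536 points without A549_NC replicate 1 and 0.288 without A549_NC replicate 2. An exact two-sided permutation test gave p = 0.333 for each difference, the smallest value that 2 libraries against 2 allow. In RNA from a whole culture, fewer cells with the form and less of it in each cell cannot be told apart. A pair of related types was also lower by value in siRNA2: transcripts of coding genes without a defined coding sequence held 4.31% and 4.08% in A549_NC and 2.68% and 2.79% in siRNA2, and transcripts marked for nonsense-mediated decay held 2.68% and 2.33%, and 1.94% and 1.97%. Transcripts typed protein_coding held more, from 72.5% and 73.1% to 77.7% and 77.3%.

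**Figure D1:**
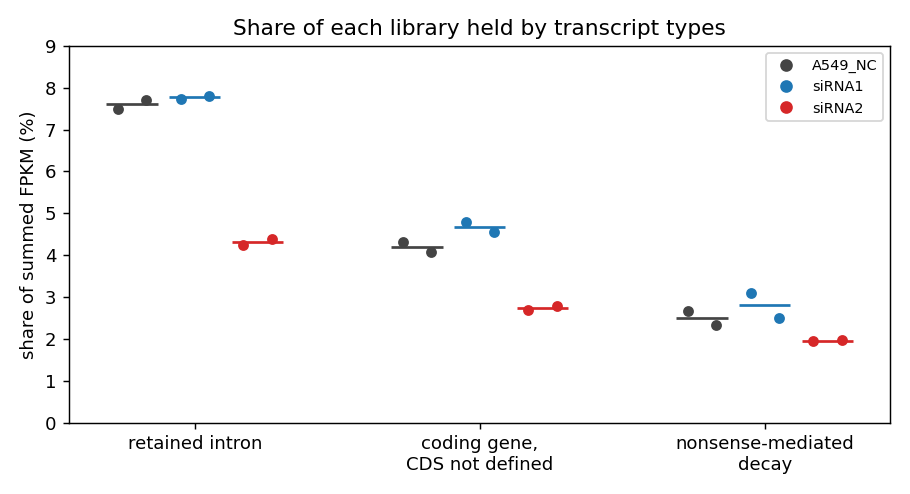
The share of the summed FPKM (%, y axis) held by transcripts of 3 types, 1 point per library and a line at the mean of each group of 2. For retained-intron transcripts the siRNA2 libraries lie at 4.25% and 4.39%, and the A549_NC and siRNA1 libraries lie between 7.48% and 7.80%.

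Within genes the pattern was the same. Over the 4881 host genes with a mean of 5 FPKM or more, the median share of the gene's FPKM in its members was 11.7% and 12.3% in A549_NC, 12.3% and 13.2% in siRNA1, and 4.63% and 4.79% in siRNA2. The typical difference between the 2 libraries of a group was of similar size in A549_NC and siRNA1 (median 3.46 and 3.35 percentage points over these genes) and smaller in siRNA2 (1.68 points). Members made up 50% or more of the FPKM in 350 and 429 genes in the A549_NC libraries, in 401 and 405 in siRNA1, and in 179 and 192 in siRNA2. By their mean over the 6 libraries, 255 of these genes stood at 50% or more and 183 under 1%.

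Members came from 5206 host genes, of which 2480 had a single member and none more than 16. Nearly all, 11031, lay in protein-coding genes, and 62 lay in lncRNA genes. Most were scarce, with a median mean of 1.33 FPKM, and short, with a median length of 778 bases against 1899 for expressed protein-coding transcripts. The FPKM was concentrated in few genes: the 10 highest held 21.5% of all member FPKM and the 100 highest held 45.8%. At the minimum itself stood ABCF3-206, ACADM-214 and ACTA2-206, each with a mean of 0.50 FPKM, and just below it ADGRB2-209, ARID1A-203 and CATSPERB-207, each with 0.498 FPKM.

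The 10 genes with the most retained-intron FPKM were RPL13A, FTH1, RPL4, RPL13, RPL8, KRT8, RACK1, MIF, RPS23 and RPL17, of which 6 encode proteins of the ribosome and RACK1 sits on its small subunit. Members of RPL13A made up 73.6% and 80.3% of the gene's FPKM in A549_NC, 75.9% and 75.5% in siRNA1, and 19.1% and 18.9% in siRNA2. In FTH1, the heavy chain of the iron store ferritin, the shares were 83.1% and 85.0%, 83.6% and 84.1%, and 0.195% and 0.225%. The A549_NC and siRNA1 libraries could not be separated in either gene, and the siRNA2 libraries lay outside their range. The genes themselves were not lost in siRNA2, since the summed FPKM of FTH1 was 4427 and 5171 in A549_NC and 10535 and 10545 in siRNA2.

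The same drop was seen in RPL8, where the members held 71.7% and 68.3% in A549_NC and 0.316% and 0.333% in siRNA2, in RPL17, where they held 60.2% and 61.3% and then 0.554% and 0.373%, and in MIF, a secreted cytokine, with 90.8% and 89.6% and then 4.86% and 6.87%. RPL4 fell from 72.4% and 74.3% to 31.6% and 32.7%, RPS23 from 48.2% and 50.4% to 16.6% and 16.0%, and KRT8, a keratin of simple epithelia, from 25.3% and 17.3% to 0.601% and 0.822%. RPL13 and RACK1 went the opposite way, from 5.10% and 6.91% to 63.4% and 64.1%, and from 5.93% and 7.76% to 53.2% and 52.0%. All 10 passed the test of the share described below (limma, adjusted p between 0.00349 and 0.0119). Several of these genes have many processed copies in the genome, and estimated counts divide reads among transcripts that share most of their sequence, so the split between a member and the mRNA of its gene is an estimate.

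**Figure D2:**
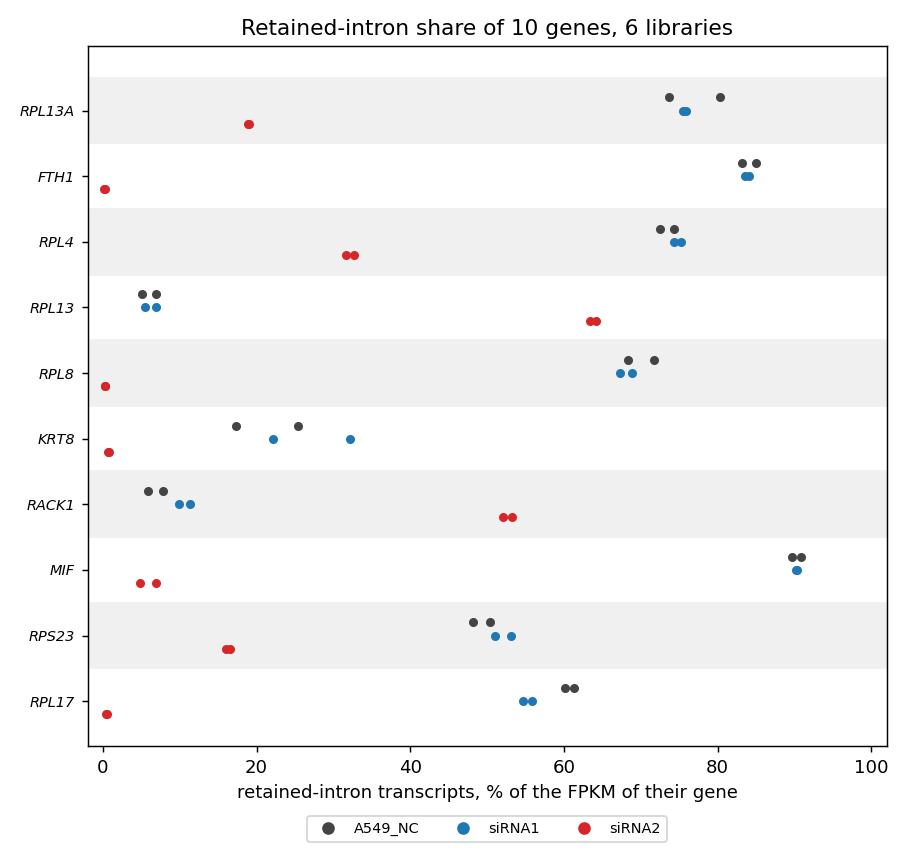
The share of a gene's FPKM in its retained-intron transcripts (%, x axis) for the 10 genes with the most such FPKM, 1 point per library. A549_NC and siRNA1 lie close together, while siRNA2 lies apart in all of them, below the others in 8 and above them in RPL13 and RACK1.

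Among genes of 5 FPKM or more, the share was highest in genes for which the retained-intron models were nearly all that was expressed. Among them were WASH2P and ENSG00000290890 (100% in every library), ADAMTSL3, C12orf50, MUC3A, CPT1C, A1BG, OAZ1 and DPY19L2P2. In such genes the level of the gene is the level of the member. ADAMTSL3-208 had 49.4 and 55.6 FPKM in A549_NC, 63.8 and 63.3 in siRNA1, and 1.80 and 1.76 in siRNA2. C12orf50-205 had 37.4 and 40.1, 46.4 and 46.4, and 3.73 and 3.61. MUC3A-005 and DPY19L2P2-211 were among the others called lower in siRNA2, but not all fell. A1BG-204 had 5.20 and 10.7 FPKM in A549_NC and 27.3 and 18.8 in siRNA2 (edgeR adjusted p = 0.0735). CPT1C-222 had 5.88 and 7.69, then 10.2 and 5.87. The gene OAZ1, for the antizyme that restrains polyamine synthesis, rose from 278 and 243 FPKM to 593 and 579. The members of OAZ1 held 89.9% and 91.9% of it in A549_NC, 89.6% and 88.4% in siRNA1, and 98.4% and 98.9% in siRNA2.

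For siRNA1, the question was whether knockdown changed the retained-intron forms beyond the spread between libraries. No member passed (edgeR quasi-likelihood test, Benjamini-Hochberg adjusted p under 0.05, 0 of 11116), nor did any of the 58827 transcripts tested, so that the share called over all transcripts was 0.0%. At an unadjusted p under 0.05 there were 228 members, 2.05% of them, beside 4.19% of all transcripts. DESeq2 called 13 members, 5 higher and 8 lower, beside 0.641% of all transcripts. The median log2 fold change was 0.02 for members and 0.00 for all transcripts, and 3359 members, 30.2%, stayed within 1.5-fold of the control mean in both libraries, against 36.6% of all. By FPKM, both siRNA1 libraries lay above both controls for 2224 members, where 20.1% of all transcripts did so, and below them for 1377, 12.4% beside 13.4%.

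The members with the lowest p in siRNA1 were mostly low. PHF20L1-202, from a gene for a reader of methylated lysines, was listed at 0 in both controls and at 2.70 and 2.32 FPKM in siRNA1, and ITGB8-204, from an integrin gene, at 0 and at 2.02 and 1.43. Against a floor of 3 counts per library these were at least 23.1-fold and 14.4-fold higher (unadjusted p = 0.00121 and 0.00268, edgeR adjusted p = 0.771 and 0.933). WSB1-204 had 8.90 and 7.58 FPKM in A549_NC, 16.2 and 18.2 in siRNA1, and 2.97 and 3.10 in siRNA2. Its log2 fold change was 0.98 ± 0.17 (SE) in siRNA1 and -1.13 ± 0.18 in siRNA2 (adjusted p = 0.933 and 0.0223).

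In the other direction stood MORF4L1-216, from the gene of a chromatin reader, with 517 and 471 FPKM in A549_NC, 250 and 272 in siRNA1, and 263 and 263 in siRNA2. Its groups did not overlap in either comparison, and the log2 fold change was -1.01 ± 0.14 for siRNA1 (adjusted p = 0.783) and -0.48 ± 0.11 for siRNA2 (adjusted p = 0.0441). Its share of the gene's FPKM moved little, so that the drop was mostly one of the whole gene. The share was 54.7% and 55.2% in A549_NC, 49.8% and 51.5% in siRNA1, and 49.7% and 51.4% in siRNA2. PSMA3-208, of a proteasome subunit, had 15.9 and 13.3 FPKM in the controls, 0.28 and 0.00 in siRNA1, and 22.02 and 17.2 in siRNA2. KLF4-205, UACA-212 and NDUFA10-211 completed the set, with unadjusted p of 0.00213, 0.00252 and 0.00303. NDUFA10-211, of respiratory complex I, had 11.2 and 6.59 FPKM, then 0.80 and 0.97 in siRNA1, and 61.0 and 55.9 in siRNA2.

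Gene by gene, the share of retained-intron FPKM in siRNA1 changed in 0 of the 5141 genes tested (limma on the log2 ratio of member FPKM to other FPKM of the gene, each with 0.5 added), beside 0.0% of all 23165 pairs of a gene and a transcript type, and 201 genes had an unadjusted p under 0.05. Both siRNA1 libraries lay above both controls in 894 of the 4881 genes of 5 FPKM or more (18.3%, against 15.1% of all pairs) and below them in 650 (13.3%, against 14.6%). The mean share stayed within 5 percentage points of the control in 3525 genes, 72.2%, against 69.5% of all pairs. It was lower by 20 points or more in 33 genes (0.676%, against 1.12%) and higher by as much in 34 (0.697%, against 0.979%).

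For siRNA2, 1965 members passed, 17.7% of them, where 24.3% of all transcripts did (edgeR adjusted p under 0.05). Of these 1511 were lower and 454 higher. The lower calls took in 13.6% of members and 12% of all transcripts, and the higher calls 4.08% and 12.3%. The median log2 fold change was -1.26 for members, or -1.06 with members at 0 in a group set to their bound, and -0.19 for all transcripts. With limma on TPM (each library's FPKM rescaled to a common total) the members split into 3781 lower and 603 higher, and all transcripts into 14734 lower and 6708 higher, in place of 7049 and 7243. These calls rest on having 2 siRNA2 libraries: without siRNA2 replicate 3 or 4 none of the 11116 passed (3171 and 3195 at an unadjusted p under 0.05), and without A549_NC replicate 1 or 2 there were 1190 and 973. Calls over all transcripts also fell in these fits, so a fall in calls was not limited to members. The median of members stayed between -1.36 and -1.08 in these fits, and that of all transcripts between -0.23 and -0.08.

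By FPKM alone, both siRNA2 libraries lay below both controls for 6564 members, 59.1%, against 44.6% of all transcripts, and above them for 1512, 13.6%, against 27.1%. Among the former were 727 members, 6.54%, with 1 FPKM or more in both controls that were listed at 0 in both siRNA2 libraries, against 4.8% of all transcripts, and among the latter 237, 2.13%, with the reverse, against 3.18%. At each level more members were called lower than higher. From 20 FPKM upwards, 43.3% of members were called lower and 24.1% higher, where all transcripts of that level gave 22.1% and 41.0%, and from 5 to 20 FPKM the members gave 30.2% and 11.3%, where all transcripts gave 20.8% and 21.0%.

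**Figure D3:**
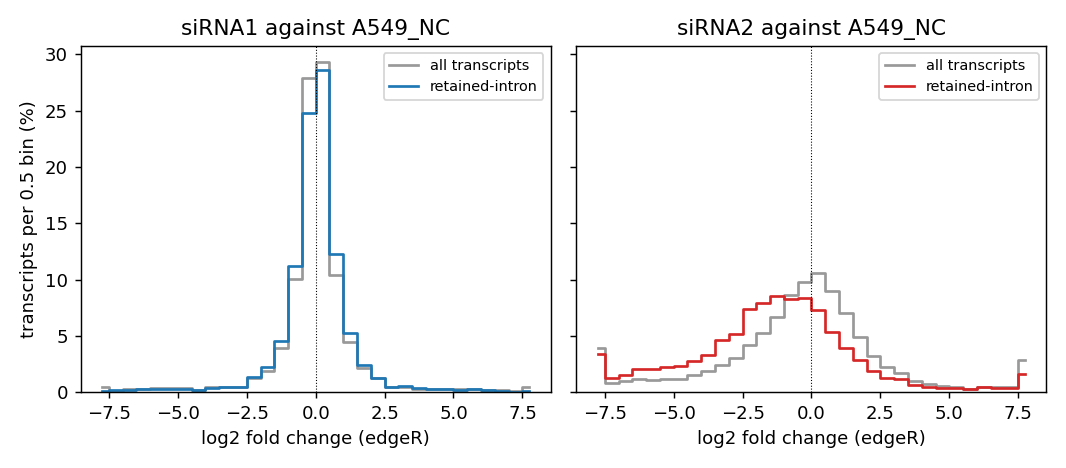
Distribution of log2 fold changes (x axis, edgeR) as the percent of transcripts per bin of 0.5 (y axis), for the 11116 retained-intron transcripts (colour) and all 58827 transcripts (grey), with values beyond the ends placed in the end bins. In siRNA1 both curves centre near 0, and in siRNA2 the curve of the members is shifted to the left, with medians of -1.26 and -0.19.

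The gene-level share gave the same account with the level of the gene taken out. It was called in 1723 of 5141 genes, lower in 1466 and higher in 257. Over all pairs of gene and type 29.1% were called, 15.9% lower and 13.2% higher. The median log2 change of the ratio was -0.88 over the retained-intron pairs and -0.09 over all pairs. Without siRNA2 replicate 3 or 4 the count fell to 300 and 242, and without A549_NC replicate 1 or 2 to 1092 and 734. Calls over all pairs also fell in these fits, and the median over retained-intron pairs stayed between -0.93 and -0.82. Over the 4881 genes of 5 FPKM or more, the median log2 ratio of mean FPKM (with 0.5 added) was -1.07 for retained-intron transcripts, -0.09 for the other transcripts of the same genes, and -0.21 for the genes as a whole.

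Genes could lose, keep or gain the retained-intron form. Both siRNA2 libraries had a lower share than both controls in 3060 of the 4881 genes (62.7%, against 35.9% of all pairs) and a higher one in 639 (13.1%, against 29.8%). The mean share was lower by 20 percentage points or more in 770 genes (15.8%, against 10.7%) and higher by as much in 176 (3.61%, against 10.4%). It stayed within 5 points in 1859 (38.1%, against 39.3%). Of the 287 genes with 50% or more in both controls, 28 were under 10% in both siRNA2 libraries and 74 stayed at 50% or more. Of the 1799 with under 10% in both controls, 4 reached 50% or more in both siRNA2 libraries. In siRNA1, 0 of the 287 were under 10% in both libraries, 232 stayed at 50% or more, and 0 of the 1799 reached 50% or more. These crossings were not counted over all pairs of gene and type.

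The genes named in this paragraph were picked after their values were seen, from those with the most retained-intron FPKM in each class. Beside FTH1, RPL8, MIF and RPL17, the 28 that lost the form held TMED2, a cargo receptor of the early secretory pathway (61.9% and 62.8% in A549_NC, 0.00% and 1.03% in siRNA2), SNRPA, a protein of the U1 particle (67.8% and 66.8%, then 0.00% and 0.694%), SLC38A2, a transporter of neutral amino acids (53.9% and 62.6%, then 7.42% and 3.82%) and EIF3I, of translation initiation (70.5% and 77.1%, then 2.04% and 5.56%). Among the 74 that kept it were SAT1, which acetylates polyamines (76.0% and 87.0%, then 51.9% and 51.1%), PDHA1, of pyruvate dehydrogenase (86.3% and 86.5%, then 78.9% and 78.6%), BLOC1S6, of a complex that serves the making of lysosome-related organelles (93.6% and 95.7%, then 60.6% and 63.5%, in a gene that went from 217 and 249 FPKM to 23.7 and 22.4), and CP, ceruloplasmin (56.0% and 61.0%, then 55.0% and 54.1%). The 4 that gained it were RPL13, RACK1, SRRD and EIF2S1, the last a subunit of the initiation factor eIF2 (4.73% and 0.00%, then 76.9% and 73.9%).

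Among single members, the 5 with the lowest p that were lower in siRNA2 were RPL8-204, FTH1-211, ADAMTSL3-208, GPCPD1-205 and RPL17-219. FTH1-211, which keeps the intron shown above, had 3672 and 4384 FPKM in A549_NC, 2549 and 3363 in siRNA1, and 11.4 and 14.3 in siRNA2. Its log2 fold change in siRNA2 was -7.94 ± 0.22 (SE, adjusted p = 0.00531). RPL8-204 went from 843 and 985 FPKM to 3.44 and 3.63, a log2 fold change of -7.64 ± 0.17, and RPL17-219 from 580 and 689 to 0.81 and 0.41, of -9.56 ± 0.33 (both adjusted p = 0.00531). GPCPD1-205, from a gene of phospholipid breakdown, had 21.4 and 21.5 FPKM in A549_NC, 29.9 and 28.3 in siRNA1, and 1.43 and 1.58 in siRNA2.

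The 5 highest by the same rule were RPL32-207, ACTG1-211, PTMA-211, ATP5MC3-205 and LRRC75A-202. ACTG1-211, of a cytoplasmic actin, was listed at 0 in both controls, at 1.78 and 1.79 FPKM in siRNA1 and at 214 and 239 in siRNA2, at least 1543-fold higher than a floor of 3 counts per library. RPL32-207 rose from 16.1 and 18.5 FPKM to 478 and 428 (log2 fold change 5.08 ± 0.16), and with it the share of the form in RPL32 rose from 1.03% and 0.985% to 39.9% and 37.6% (limma adjusted p = 0.00377). PTMA-211, of the chromatin-associated protein prothymosin alpha, rose from 92.7 and 101 FPKM to 712 and 784 (3.32 ± 0.12), and ATP5MC3-205, of the ATP synthase ring, from 18.4 and 18.7 to 109 and 104 (2.85 ± 0.11), all with an adjusted p of 0.00531. In siRNA1 these 3 stood at 11.97 and 17.3, 133 and 83.8, and 12.3 and 11.7 FPKM.

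Few members held their level in siRNA2: 819, or 7.37%, stayed within 1.5-fold of the control mean in both libraries, against 14.1% of all transcripts. The highest were RPL4-203, RPS23-203, ALDOA-212, ACTN4-208 and YWHAE-205. RPL4-203 had 1211 and 1481 FPKM in A549_NC, 944 and 1370 in siRNA1, and 1078 and 1008 in siRNA2 (log2 fold change -0.04 ± 0.14, adjusted p = 0.843). Its share of RPL4 nonetheless fell, since the whole gene went from 1884 and 2249 FPKM to 4122 and 3956. RPS23-203 behaved alike, with 483 and 521 FPKM in the controls and 528 and 479 in siRNA2, in a gene that went from 1001 and 1035 to 3187 and 2989. ALDOA-212, of glycolytic aldolase, had 302 and 409 FPKM and then 273 and 243.

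The difference between the siRNAs was tested directly. Comparing siRNA2 with siRNA1, 2198 members passed (19.8%, against 26.2% of all transcripts), 1691 lower in siRNA2 and 507 higher. Of the members called in siRNA2 against A549_NC, 1257 were also lower and 343 also higher than in siRNA1, or 11.3% and 3.09% of all members. Both tests use the same siRNA2 libraries, so an overlap is partly built in, and it was not counted over all transcripts. With a library left out, calls fell among members and over all transcripts. Without siRNA2 replicate 3 or 4 the direct comparison called 497 and 559, and without siRNA1 replicate 1 or 2 it called 1245 and 1114.

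The fold changes in siRNA2 were also set out by the length and base composition of the retained intron, as a description with no test of the difference. Members with exactly 1 whole intron were ordered by the length of that intron and divided into tertiles. The median log2 fold change was -0.22 for introns of 26 to 157 bases, -0.77 for 158 to 379 bases and -1.28 for 380 to 6484 bases. In the same order 5.29%, 5.74% and 24.9% were called lower and 6.13%, 3.92% and 3.64% higher, beside 12% and 12.3% of all transcripts. The members themselves were of unequal length, with medians of 750, 908.5 and 2455 bases, and a longer transcript draws more counts at the same FPKM. By GC content the median was -1.65 up to 46.7%, -0.68 from 46.8% to 59.9% and 0.09 from 60.0% upwards, with 21.6%, 9.51% and 4.75% called lower and 2.51%, 3.08% and 8.10% higher, and median member lengths of 1336, 1012 and 900.5 bases. In siRNA1 the medians were -0.06, -0.05 and 0.05 for the length tertiles and 0.11, -0.04 and -0.11 for the GC tertiles. Members that held a whole intron had a median of -0.75 in siRNA2 and those that reached into part of one had -1.58. In these classes 12.5% and 14.0% were called lower, beside 12% of all transcripts. By summed FPKM the order was the other way. Whole-intron members went from 17392 and 21487.5 FPKM in A549_NC to 7312 and 7511 in siRNA2. Part-intron members went from 35172 and 37593 to 27681 and 28164. The parts of transcript length and library preparation in these differences were not tested.

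**Figure D4:**
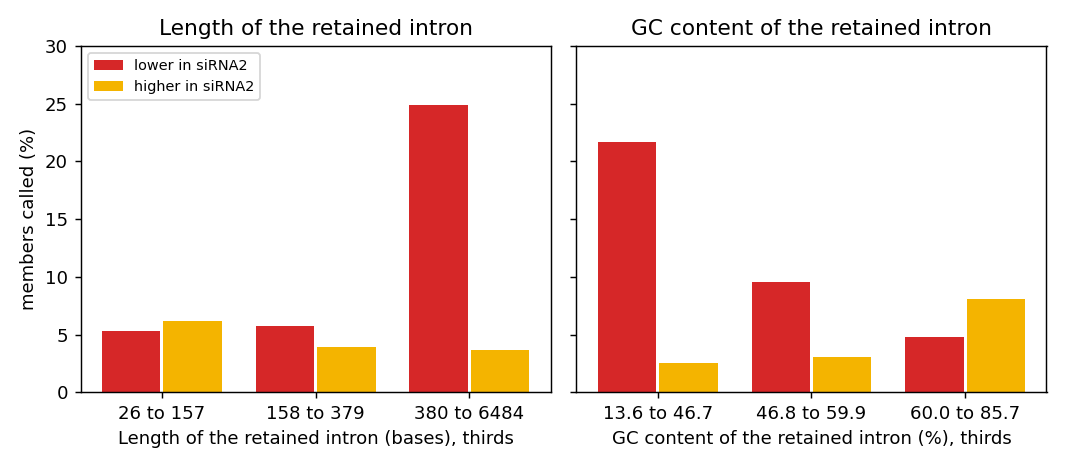
The percent of members called lower or higher in siRNA2 (y axis, edgeR adjusted p under 0.05), for members that hold exactly 1 whole intron, in tertiles of the length (left, bases) and GC content (right, %) of that intron. The bars for lower calls are tallest for the longest introns, at 24.9%, and for the introns lowest in GC, at 21.6%.

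Beside the counts of the lists that follow stand those over all features in siRNA2: 12% of all transcripts were called lower and 12.3% higher, the share was called lower in 15.9% and higher in 13.2% of all pairs of gene and type, and in 28.5% and 5.00% of the 5141 genes with members. Pooled shares are taken over the genes of a list that have members, and leave out its other expressed genes. They are thus higher than shares of the whole list would be. For SR proteins, 11 of the 14 expressed genes entered. Members held 20.8% of the FPKM of these genes in A549_NC, 24.3% in siRNA1 and 7.71% in siRNA2 (means of 2 libraries). SR proteins, which activate splice sites, had 29 members in 11 genes, of which 6 were called lower and 3 higher in siRNA2, or 20.7% and 10.3%, and the share was called lower in 4 of the 11 genes, 36.4%, and higher in 1. SRSF2-206 had 20.9 and 14.0 FPKM in A549_NC, 21.4 and 17.2 in siRNA1, and 3.36 and 2.94 in siRNA2 (log2 fold change -2.14 ± 0.30, adjusted p = 0.0186). Within TRA2B the members split: TRA2B-213 fell from 8.38 and 8.02 FPKM to 0.58 and 0.55 (-3.56 ± 0.20, adjusted p = 0.00647), and TRA2B-212 rose from 4.61 and 4.55 to 20.7 and 27.7 (2.75 ± 0.30, adjusted p = 0.0122). SRSF1-202 rose from 0.41 and 0.00 FPKM to 17.6 and 25.7 (adjusted p = 0.0188).

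The kinases that phosphorylate SR proteins had 17 members in 6 genes. Of these 1 was called lower in siRNA2, SRPK2-207, listed at 2.03 and 1.43 FPKM in the controls, 2.62 and 3.6 in siRNA1 and 0 in both siRNA2 libraries, at least 25.9-fold lower (adjusted p = 0.0204). CLK1-210 and CLK4-203, which keep intron 4 with the shared 5′ site, had similar patterns by value. CLK1-210 had 6.33 and 14.3 FPKM in A549_NC, 5.13 and 16.6 in siRNA1, and 3.56 and 3.16 in siRNA2, and CLK4-203 had 2.26 and 3.86, 1.91 and 3.6, and 0.92 and 1.08. Neither passed in siRNA2 (adjusted p = 0.110 and 0.0930). In both genes replicate 2 of A549_NC and of siRNA1 stood well above replicate 1. The share of the form was called lower in CLK1, at 64.8% and 66.9% in A549_NC and 39.1% and 31.1% in siRNA2 (adjusted p = 0.0268).

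The hnRNP genes had 58 members in 17 genes, 12 called lower and 6 higher, again 20.7% and 10.3%, with the share called lower in 9 genes, 52.9%, and higher in 1. HNRNPH1 alone had 15 members, which held 60.5% and 56.3% of the gene in A549_NC, 64.5% and 65.2% in siRNA1, and 45.6% and 49.7% in siRNA2 (adjusted p = 0.234). Its HNRNPH1-242 fell from 95.8 and 88.2 FPKM to 11.2 and 16.2 (-2.36 ± 0.27, adjusted p = 0.0127), while HNRNPH1-233, at 0 in A549_NC and siRNA1, stood at 27.4 and 34.7. PTBP1-206, which keeps intron 10, had 76.2 and 85.1 FPKM, then 65.5 and 63.8 in siRNA1 and 38.2 and 33.0 in siRNA2 (-0.83 ± 0.17, adjusted p = 0.0361). HNRNPC-206 rose from 2.53 and 0.77 FPKM to 76.0 and 98.5 (adjusted p = 0.0101).

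The proteins of the snRNPs and the U2 complex had the highest pooled share of the 22 lists in A549_NC, with 39.0%, 38.9% in siRNA1 and 16.7% in siRNA2. It covers the 21 genes with members, out of 40 expressed. Of their 69 members 8 were called lower, 11.6% and thus near the 12% of all transcripts, and 3 higher, 4.35%. The share was called lower in 7 of 21 genes, 33.3%, and higher in 0. SNRPA-202 had 172 and 198 FPKM in A549_NC, 126 and 142 in siRNA1, and was listed at 0 in both siRNA2 libraries, at least 104-fold lower. SF3B3-206, from a gene of the U2 particle in which members made up 83.7% and 86.0% of the FPKM in A549_NC, fell from 112 and 134 FPKM to 18.6 and 16.8 (-2.45 ± 0.17, adjusted p = 0.00718). SNRNP70-205 had 101.9 and 152, 80.9 and 106, and 43.1 and 53.5 FPKM and did not pass (adjusted p = 0.0653). The share in SNRNP70, the U1-70K protein, was called lower, from 73.2% and 80.2% to 31.1% and 34.1% (adjusted p = 0.0104).

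Other splicing regulators had 168 members in 42 genes, 22 called lower and 7 higher, or 13.1% and 4.17%, with a pooled share of 22.6% in A549_NC, 24.99% in siRNA1 and 15.4% in siRNA2. DDX17-201, an RNA helicase transcript that keeps the long intron 11, had 32.2 and 43.6 FPKM, 39.5 and 47.7 in siRNA1, and 8.56 and 9.31 in siRNA2 (-1.78 ± 0.20, adjusted p = 0.0125). CCNL1-204, of a cyclin found in nuclear speckles, fell from 8.11 and 7.12 to 0.67 and 0.87 FPKM (-3.00 ± 0.26, adjusted p = 0.00899). KHSRP-204 rose from 26.1 and 16.8 to 41.0 and 39.4 FPKM (1.27 ± 0.28, adjusted p = 0.0438). Its share of the gene was 32.7% and 23.3% in A549_NC and 31.1% and 31.5% in siRNA2. LUC7L2-203, of a U1-associated protein, rose from 0.30 and 0.00 to 40.2 and 35.4 FPKM (adjusted p = 0.0102), and from 0.910% and 0.00% of its gene to 65.4% and 64.8%. In siRNA1 no member of any of these 5 lists passed (edgeR).

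Genes of the ribosome and of energy supply made up the next group. Cytoplasmic ribosomal protein genes had 166 members in 67 genes, of which 10 were called lower and 12 higher, or 6.02% and 7.23%, both under the shares of all transcripts. The share was called lower in 29 of the 67 genes, 43.3%, and higher in 4, with a pooled share of 13.6% in A549_NC, 13.3% in siRNA1 and 6.66% in siRNA2. Translation factors had 141 members, 19 called lower and 14 higher, or 13.5% and 9.93%, and a pooled share of 12.9%, 13.8% and 10.7%. EEF1A1-207, of elongation factor 1 alpha, which keeps the 83-base intron 4, was listed at 0.00 and 2.47 FPKM in A549_NC, 0.00 and 11.98 in siRNA1, and 757 and 721 in siRNA2 (adjusted p = 0.0129). Oxidative phosphorylation genes had 96 members, 12 lower and 8 higher, or 12.5% and 8.33%, so that the lower calls were near the share of all transcripts, with the share called lower in 23 of 42 genes, 54.8%, and higher in 2. Mitochondrial ribosomal protein genes had 50, with 5 lower and 6 higher, and the share called lower in 12 of 28, 42.9%, and higher in 3. MRPL3-206 fell from 55.5 and 52.4 FPKM to 0.65 and 0.38 (-6.33 ± 0.36, adjusted p = 0.00655).

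Among the metabolic lists, NRF2 targets, the antioxidant genes that are active in A549, had 45 members, 7 called lower and 3 higher, or 15.6% and 6.67%, and a share called lower in 8 of 15 genes, 53.3%, and higher in 0. Their pooled share was 33.3% in A549_NC, 32.3% in siRNA1 and 1.26% in siRNA2. FTH1 belongs to this list, and its members alone had 3681 and 4397 FPKM in A549_NC and 20.6 and 23.7 in siRNA2. The pooled share without FTH1 was not analysed here. AKR1C2-204, of an aldo-keto reductase, had 217 and 213 FPKM, 163 and 211 in siRNA1, and 73.9 and 77.1 in siRNA2 (-1.20 ± 0.08, adjusted p = 0.00723). Cholesterol synthesis genes had 38 members, 3 lower and 1 higher, a share called lower in 8 of 14 genes, 57.1%, and higher in 0, and a pooled share of 24.9%, 25.3% and 8.78%. Glycolysis genes had 43 members, 12 lower, 27.9%, and 1 higher, among them TPI1-204, which fell from 239 and 127 FPKM to 1.78 and 2.75 (-5.86 ± 0.52, adjusted p = 0.00924). For lysosomal genes 2 of 41 members were lower and 2 higher, and the share was called lower in 4 of 20 genes and higher in 1. Their pooled share was 13.4% in A549_NC, 13.5% in siRNA1 and 5.80% in siRNA2.

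Genes of the genome and the cell cycle were mixed. Chromatin regulators had 122 members, 23 called lower, 18.9%, and 3 higher, 2.46%, with a median log2 fold change of -2.57 in siRNA2 and 0.07 in siRNA1. DNA repair genes had 59, with 8 lower, 13.6%, and 0 higher and a pooled share of 14.8%, 16.7% and 5.21%. PARP1-209, of the strand-break sensor, had 22.3 and 31.5 FPKM, 33.7 and 25.8 in siRNA1, and was listed at 0 in both siRNA2 libraries, at least 65.5-fold lower. Mitosis genes had a pooled share of 9.67%, 11.0% and 11.6%, with 5 of 53 members lower and 4 higher, and DNA replication genes had 31.6%, 33.0% and 29.6%, with 6 of 52 lower and 3 higher. The median log2 fold change of DNA replication members was 0.32 in siRNA2, the only positive median among the 22 lists, and -0.42 in siRNA1. ORC6-207, of the origin recognition complex, fell from 85.3 and 101.97 FPKM to 5.40 and 5.84 (-3.74 ± 0.16, adjusted p = 0.00539). MCM4-213, of the replicative helicase, had 40.8 and 23.1 FPKM in A549_NC and 27.4 and 8.65 in siRNA2 and did not pass (-0.28 ± 0.75, edgeR adjusted p = 0.807).

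Of the remaining lists, unfolded protein and stress response genes had the lowest pooled share in A549_NC and siRNA1, where NRF2 targets had it in siRNA2, and like mitosis genes they had a higher mean in siRNA2 than in A549_NC, at 2.39% in A549_NC, 3.00% in siRNA1 and 3.69% in siRNA2. Of their 35 members 3 were lower and 6 higher. XBP1-205, from a gene whose mRNA is itself spliced in the cytoplasm under stress, rose from 1.09 and 0.38 FPKM to 53.2 and 55.5 (6.68 ± 0.64, adjusted p = 0.0103). Interferon-stimulated genes had 22 members, 5 lower, 22.7%, and 0 higher, RNA decay and surveillance genes 60, with 7 and 1, aminoacyl-tRNA synthetases 35, with 5 and 1, and proteasome genes 84, with 4 and 7.

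**Figure D5:**
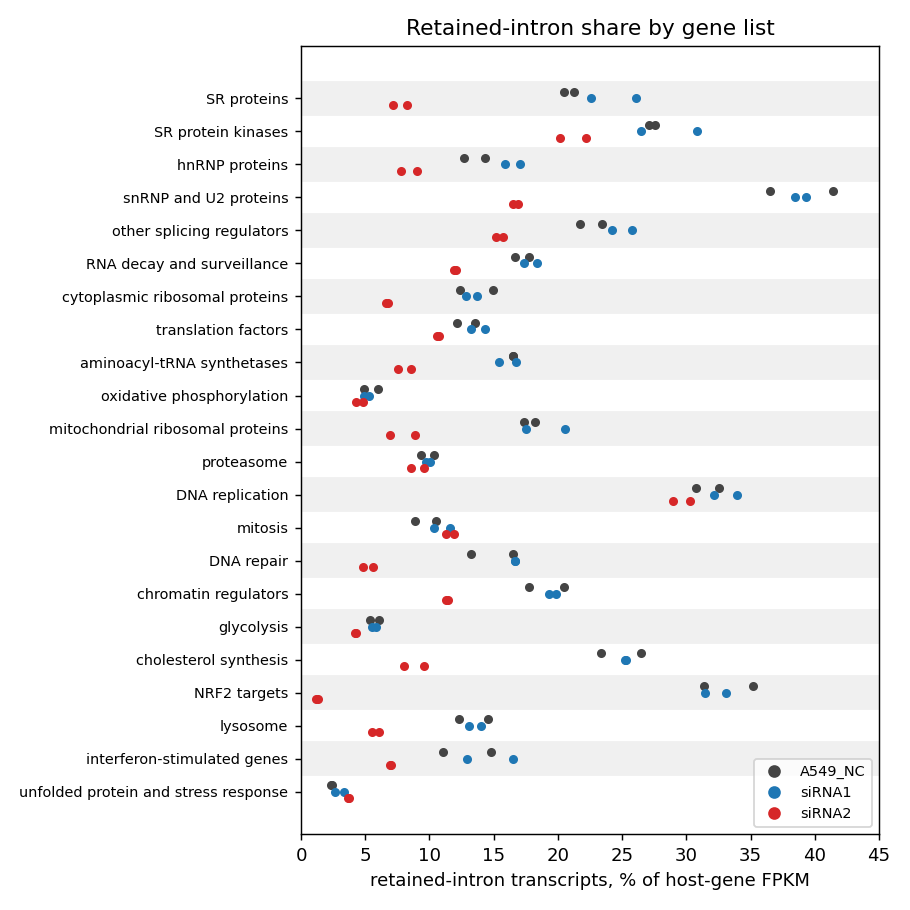
The pooled share of retained-intron transcripts in the FPKM of their host genes (%, x axis) for 22 gene lists, 1 point per library. The siRNA2 libraries lie below the other libraries for most lists, with the widest gap for NRF2 targets (1.26% against 33.3% in A549_NC, means), and above the A549_NC libraries for unfolded protein and stress response genes and for mitosis. The list of NRF2 targets includes FTH1.

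HNRNPM, a splicing factor that binds introns, had 2 members, at 7.46% and 7.25% of the gene in A549_NC, 5.80% and 8.84% in siRNA1, and 0.155% and 0.255% in siRNA2, a share called lower (adjusted p = 0.00529), although neither HNRNPM-203 nor HNRNPM-211 passed singly (adjusted p = 0.0574 and 0.0726). MELTF, the gene beside the targeted RNA, had 3 members, with 17.3% and 17.5%, 19.2% and 21.1%, and 3.94% and 4.54% of its FPKM (adjusted p = 0.0194 for siRNA2). MELTF-206, the highest of them, had 1.50 and 2.29 FPKM in A549_NC, 1.59 and 2.17 in siRNA1, and 0.46 and 0.41 in siRNA2 (adjusted p = 0.0634). In siRNA1 the log2 changes of the ratio were -0.02 in HNRNPM and 0.22 in MELTF, and neither passed.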

How the data were processed

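RNA of A549 cells was sequenced in 6 libraries, 2 per group. Per the labels, the submitters' processing notes name Trimmomatic 0.30, HISAT2 2.0.1, HTSeq 0.6.1, DESeq and hg19; the tool behind the estimated counts is not given in the sources used here, nor is strand. The authors deposited 2 tables of 180253 transcripts with expected counts and FPKM per library, and the A549_NC values were identical in both. Transcript types, exons and splice sites came from GENCODE v44 mapped to GRCh37, the build of the files, in which 151453 transcripts were found and 28800 were not. The lengths of 10345 members equalled the deposited lengths. Gene totals sum all transcripts of a gene.

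Expected counts were rounded and fitted with edgeR 4.0.16 (TMM, quasi-likelihood) over all 58827 transcripts with a mean of 0.5 FPKM or more, with the groups compared only. Ratios within genes were fitted with limma 3.58.1 (trend) over 23165 pairs of gene and type. R was 4.3.3, and DESeq2 1.42.0 served as an alternative. The fits were also run on simulated counts with the same dispersion for every transcript. That setting is simpler than these data, so it does not measure the error of the calls here. Adjusted p-values are Benjamini-Hochberg over the whole fit, at 0.05. Bounds use a floor of 3 counts per library and cover counting error only. Members, gene lists and tests were chosen with earlier results of these data known. Named were the genes highest in retained-intron FPKM and share, the 5 members of lowest p in each direction, called or highest members of the splicing lists, up to 2 per other list, the highest kept members, members next to the minimum, and genes that the study examined, of which some results are not reported here. The list symbols of small RNAs and nuclear lncRNAs were not analysed here.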

Additional observations from a re-analysis of the deposited data

Results flagged for a closer look

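In the direct test of siRNA2 against siRNA1, 2198 retained-intron transcripts passed (edgeR, adjusted p under 0.05), 19.8% of them, where 26.2% of all transcripts did. Of the 158 transcripts chosen by the naming rule 107 passed it, a count that the rule partly fixed, since it took up transcripts for their calls in these libraries, and that supports nothing further. The members' share of the summed FPKM was above both controls in both siRNA1 libraries and below both in both siRNA2 libraries, and the siRNA2 mean minus the siRNA1 mean was -3.45 percentage points. The pooled share moved in opposite directions in the same way for SR proteins (-16.6 points between the siRNA2 and siRNA1 means), hnRNP proteins (-8.06), other splicing regulators (-9.55) and DNA repair genes (-11.5). For these shares the difference was not tested. Transcripts not matched to the annotation, which have no type here and entered the fits and the shares over all transcripts but no comparison of types, held 11.1% and 11.0% of the FPKM in siRNA2 and 10.1% and 9.92% in A549_NC, a difference of 1.05 points. With 2 libraries per group, no single library could be tested as standing apart.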

How the results depend on the processing

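For siRNA1, no alternative but DESeq2, with 13, called a member, and none called a gene share. The siRNA1 median of 0.02 was 0.0318 with DESeq2, 0.13 with TPM and 0.0422 with the minimum taken over the 4 libraries, and ran from -0.0237 to 0.12 with a library left out. Without the 10 highest genes the share difference was 0.432 points. Replicate numbers are shared by A549_NC and siRNA1 only, and members' deviations correlated at 0.060. Same-numbered libraries were not treated as pairs in the main fits. A correlation over members that are mostly scarce cannot show that they are not pairs. With the replicate block 0 members and 0 genes were called and the median was 0.01. For siRNA2, limma called 4384 members on TPM, 4172 on log2(FPKM + 0.5) and 3810 on log2(FPKM + 0.1). With a library left out the calls ran from 0 to 1190, the gene shares called from 242 to 1092 and the median from -1.36 to -1.08. The median was -1.29 with DESeq2, -1.11 with TPM, -1.16 with the minimum over 4 libraries and -1.42 with a minimum of 2 FPKM. On TPM the median of all transcripts moved to -0.50, with 6708 calls higher and 14734 lower, beside 7243 and 7049. The siRNA2 share difference was -2.11 points by expected counts, -2.22 without the 10 highest genes and -3.67 within protein-coding genes. The direct test of siRNA2 against siRNA1, whose alternatives were chosen after seeing the data, called 497 to 1245 members with a library left out and 2671 with DESeq2. Of the named transcripts, 0 changed direction past the threshold. The cause of these shifts was not tested. With 2 libraries per group, the 4 left-out fits compare 1 library with 2, and the single library is assumed to vary like the others.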
